A study of Mus musculus with 16 samples.

Results

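The comparison described here sets the cortex of mouse fetuses whose father alone had been exposed to alcohol (ethanol) beside the cortex of fetuses with no exposed parent. The members are 4 paternally exposed and 4 control libraries, chosen by the exposure in their labels, out of 16 RNA sequencing libraries in the series. The other 8 come from fetuses of exposed mothers or of exposed mothers and fathers. All tissue was taken at gestational day 16, and each exposure held 2 male and 2 female libraries, so 4 groups of 2 enter: male control, male paternal, female control and female paternal. No mother was exposed in any of the 4 groups. The labels give neither strain, dose nor length of exposure, and do not say whether the libraries of a group came from separate litters. The p-values below therefore rest on the spread of the libraries at hand, part of which may be technical.

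Gestational day 16 lies in the neurogenic phase of the mouse cortex. Radial glia in the ventricular zone divide and give rise to intermediate progenitors, whose daughters migrate outward to form first the deep and then the upper layers of neurons. A father's exposure is thought to reach the fetus mainly through the sperm, and imprinted genes, which are expressed from a single parental copy, are a class often examined in such designs. The title of the series names alcohol-related birth defects after exposure of the father alone as its question. The counts here address whether RNA levels in the fetal cortex differed between the exposures, and whether they did so alike in males and females.

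The male libraries held 15336566 to 19966696 counts each and the female ones 32769462 to 35218456, so depth differed with sex. Defining genes of the cortex were present in all 8 libraries: Bcl11b, a deep-layer factor, stood at 625 to 793 CPM (counts scaled to a common library total), and Sox2, a progenitor factor, at 88.5 to 135 CPM. Xist, the RNA of the inactive X chromosome, stood at 502 to 757 CPM in the libraries labelled female and at 0 to 0.744 CPM in those labelled male. The scaling also takes account of library composition. The replicates of every group differed by more than counting noise. The squared difference between them, divided by its counting variance and taken as a median over genes, was 1.74 in female paternal, 2.64 in male control, 2.86 in male paternal and 4.64 in female control libraries, against 0.455 for noise alone. The value was highest in the female controls, but it grows with depth, so it does not rank the spread across the sexes. Of 20656 genes, those differing more than 1.5-fold between replicates numbered 2706 in female control and 1006 in female paternal libraries. They numbered 2364 in male control and 2564 in male paternal libraries.

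No gene passed the test of paternal exposure against control over both sexes. With edgeR's quasi-likelihood test and Benjamini-Hochberg adjustment over 20656 genes, 0 genes (0%) had an adjusted p under 0.05, and the lowest adjusted p was 0.927. At an unadjusted p under 0.05 there were 1046 genes, 445 higher and 601 lower, which is 5.06% of those tested. DESeq2 called 1 gene, an identifier without a symbol in the tables used (ENSMUSG00000118790, log2 fold change 0.68 ± 0.14, DESeq2 adjusted p = 0.0388). The median log2 fold change of all genes was -0.01. Genes whose 2 paternal libraries lay above both controls in males and again in females numbered 518 (2.51%), and those below in both numbered 712 (3.45%). The genes named next are the 12 of smallest p in each direction among those with an established symbol and the same sign in both sexes. All 24 have an adjusted p of 0.927 in edgeR's test, so their values describe these libraries and no change was called.

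Mest, an imprinted gene expressed from the father's copy and active in growing tissues, was among the abundant genes of the lower set. It stood at 174 and 172 CPM in male controls and at 125 and 158 CPM in male paternal libraries, and at 202 and 187 CPM in female controls and at 152 and 152 CPM in female paternal libraries. All 4 paternal libraries lay below all 4 controls. The log2 fold change was -0.32 ± 0.07 (standard error, 4 libraries against 4; edgeR adjusted p = 0.927). Copg2, which encodes a coat protein of vesicles moving between Golgi and endoplasmic reticulum, lies beside Mest on chromosome 6. It stood at 141 and 141 CPM in male controls and 113 and 127 CPM in male paternal libraries, and at 153 and 155 CPM in female controls and 127 and 132 CPM in female paternal libraries, a log2 fold change of -0.24 ± 0.06. Here too the 4 paternal libraries lay below the 4 controls. The annotated spans of the pair overlap by 913 bases on opposite strands, and no source used here states the strand setting, so reads from the overlap cannot be told apart.

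The stretches just before the start sites of this pair are shown because both genes were lower in the same 4 libraries and both lie in an imprinted region, where methylation of CG dinucleotides marks the parental copies. No methylation was measured here. The sequences are RefSeq's on GRCm38.p6, 250 bases before the annotated start, 5′ to 3′ on the gene's strand, with CG in capitals. CG reads the same on both strands. For Mest, which has 3 listed starts, the one with the most CG is shown, at chr6:30737800-30738049 on the plus strand. For Copg2 the window is chr6:30896795-30897044 on the minus strand.
Mest: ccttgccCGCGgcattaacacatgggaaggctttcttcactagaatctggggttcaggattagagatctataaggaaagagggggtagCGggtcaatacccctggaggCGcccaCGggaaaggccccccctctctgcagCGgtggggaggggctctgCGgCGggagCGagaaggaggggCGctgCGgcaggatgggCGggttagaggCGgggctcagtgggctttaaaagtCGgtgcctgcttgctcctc
Copg2: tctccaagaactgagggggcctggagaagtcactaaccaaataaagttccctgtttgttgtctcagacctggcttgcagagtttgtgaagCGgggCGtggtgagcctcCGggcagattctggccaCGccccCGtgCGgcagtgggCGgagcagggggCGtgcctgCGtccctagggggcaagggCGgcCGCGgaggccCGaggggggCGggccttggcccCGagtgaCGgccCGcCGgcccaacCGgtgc
The Mest window held 14 CG and the Copg2 window 19, against a median of 6 over 32851 such windows. At least as many were found in 29.4% of all windows for Mest and in 19.7% for Copg2, so neither is unusual for a start site.

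Among transcription factors, Prox1 and Zfhx3 were lower. Prox1, a homeobox factor of the dentate gyrus and of some interneurons, stood at 43.9 and 44.8 CPM in male controls and 39.6 and 37.5 CPM in male paternal libraries. In females it stood at 51.1 and 64.9 CPM in controls and 36.3 and 37.5 CPM in paternal libraries. The 4 paternal libraries were within 36.3 to 39.6 CPM, below every control, and the log2 fold change was -0.44 ± 0.10. Zfhx3, a large zinc finger homeobox factor of differentiating neurons, stood at 231 and 245 against 128 and 215 CPM in males and at 216 and 263 against 165 and 187 CPM in females (-0.46 ± 0.13), with male paternal replicate 1 the lowest of the 8. Rmst, a long non-coding RNA of neural progenitors, stood at 12.8 and 16.8 against 8.63 and 8.64 CPM in males and at 10.4 and 11.3 against 7.83 and 9.83 CPM in females (-0.53 ± 0.14). D10Wsu102e stood at 307 and 370 against 207 and 280 CPM in males and at 287 and 295 against 234 and 221 CPM in females (-0.41 ± 0.09). For both the groups did not overlap within a sex.

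Several genes of the neuronal surface and synapse were in the lower set, each by a small margin. Bsn encodes Bassoon, a scaffold of the presynaptic active zone, and stood at 291 and 287 against 223 and 263 CPM in males and at 303 and 368 against 279 and 260 CPM in females (-0.28 ± 0.08). Pcdhgb7, a clustered protocadherin that gives neurons a surface identity, stood at 15.5 and 13.1 against 9.59 and 11.01 CPM in males and at 14.9 and 15.1 against 11.9 and 11.3 CPM in females (-0.42 ± 0.11). The clustered protocadherins share exons and near-identical stretches, so their single values are uncertain. Plxna1, a semaphorin receptor of growing axons, was at 303 and 297 CPM in male and 312 and 346 CPM in female controls, against 244 and 268 CPM and 288 and 282 CPM after paternal exposure (-0.22 ± 0.06). Igsf9b, an adhesion protein of inhibitory synapses, had a log2 fold change of -0.25 ± 0.07, Asic1, an acid-gated sodium channel, of -0.21 ± 0.06, and Ubr4, a ubiquitin ligase, of -0.23 ± 0.06. In each of these the paternal libraries of a sex lay below its controls.

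**Figure D1:**
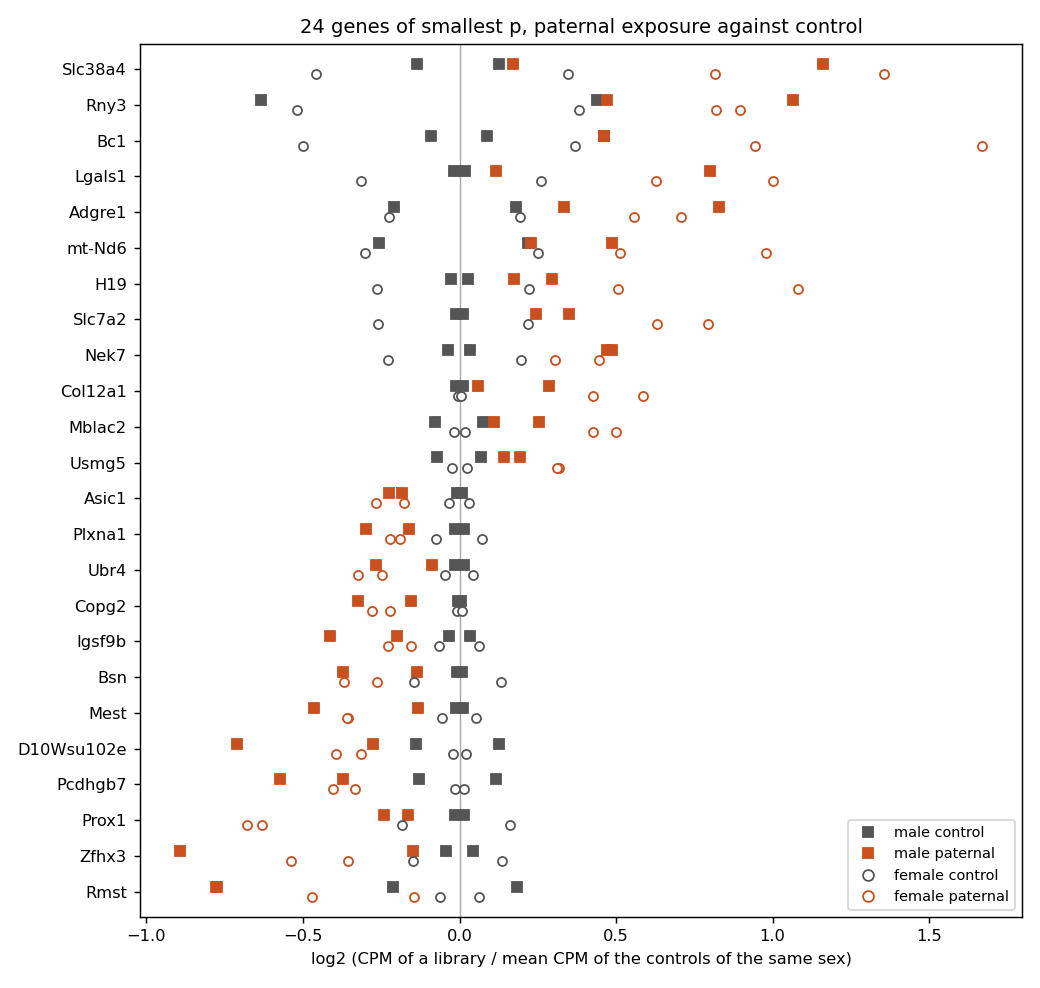
Level of the 24 genes of smallest p in each of the 8 libraries, as log2 of the CPM over the mean CPM of the controls of the same sex (horizontal axis); filled squares are male and open circles female libraries, grey are controls and orange paternal exposure. For all 24 genes both paternal points of a sex lie to 1 side of both controls of that sex, and the distance is wider in females for Bc1, H19 and Slc7a2. The 24 were picked from these same libraries by small p and shared sign, which favours such a layout. Among all genes 5.95% had it, in the same direction in both sexes.

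Amino acid transporters stood at the head of the higher set. Slc7a2, a carrier of arginine and lysine, stood at 17.1 and 17.4 CPM in male controls and 22.0 and 20.4 CPM in male paternal libraries, and at 10.9 and 15.3 CPM in female controls and 22.7 and 20.3 CPM in female paternal libraries (0.51 ± 0.13). The 4 paternal libraries lay within 20.3 to 22.7 CPM, and the controls spread from 10.9 to 17.4 CPM. Slc38a4, an imprinted carrier of neutral amino acids expressed from the father's copy, stood at 4.65 and 5.58 against 11.5 and 5.76 CPM in males and at 2.38 and 4.17 against 8.38 and 5.76 CPM in females (0.93 ± 0.24). Paternal replicate 1 of each sex was the highest, and male paternal replicate 2 lay just above male control replicate 2.

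H19, an imprinted growth-limiting RNA expressed from the mother's copy, stood at 137 and 132 CPM in male controls and 152 and 166 CPM in male paternal libraries, and at 71.2 and 99.7 CPM in female controls and 181 and 121 CPM in female paternal libraries. The log2 fold change was 0.53 ± 0.15, made up of 0.24 ± 0.18 in males and 0.82 ± 0.18 in females. Igf2, the paternally expressed growth factor that shares a domain with H19, stood at 14.5 and 14.7 against 17.0 and 19.5 CPM in males and at 4.67 and 14.3 against 22.7 and 14.3 CPM in females, where the groups overlapped. Its lowest value came from female control replicate 1, the library that also held the lowest H19. Col12a1, a fibrillar-associated collagen, stood at 38.7 and 39.3 against 47.5 and 40.6 CPM in males and at 30.4 and 30.6 against 45.9 and 41.0 CPM in females (0.35 ± 0.09). Lgals1, which encodes galectin-1, stood at 9.78 and 10.01 against 17.3 and 10.7 CPM in males and at 4.91 and 7.32 against 12.2 and 9.44 CPM in females (0.66 ± 0.18). Adgre1, the macrophage surface receptor known as F4/80, stood at 4.37 and 3.34 against 6.84 and 4.85 CPM in males and at 3.07 and 4.11 against 5.86 and 5.29 CPM in females (0.61 ± 0.18). These last genes are ones that meningeal, vascular or immune cells express, and the markers of such cells are given further on.

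Small and mitochondrial RNAs made up a further group. Bc1, a short neuronal RNA that represses translation in dendrites, stood at 35.5 and 40.1 CPM in male controls and 52.1 and 52.0 CPM in male paternal libraries, and at only 0.633 and 1.16 CPM in female controls and 2.85 and 1.72 CPM in female paternal libraries (0.73 ± 0.19). Rny3, a short RNA of Ro particles, stood at 19.3 and 40.6 against 62.6 and 41.5 CPM in males and at 5.12 and 9.55 against 12.9 and 13.7 CPM in females (0.83 ± 0.23). Both were higher in every male library than in every female library compared. CPM is scaled for depth, but the male libraries were shallower and held a larger share of mitochondrial ribosomal RNA, given below. What goes with sex in this gap cannot be told apart from these differences between the libraries. mt-Nd6, a subunit of complex I encoded on the mitochondrial strand opposite to the other protein genes, stood at 203 and 282 against 339 and 283 CPM in males and at 108 and 73.4 against 129 and 178 CPM in females (0.56 ± 0.15). Mitochondrial ribosomal RNA took 0.059% and 1.35% of counts in male controls and 1.99% and 0.947% in male paternal libraries. In females it took 0.00897% and 0.00178% against 0.00925% and 0.0158%. The part of that share in the mt-Nd6 and Rny3 values was not tested. Of 13 mitochondrially encoded mRNAs 12 had a positive value with a median of 0.11 (0.19 without male paternal replicate 1 and 0.08 without female control replicate 2), while mt-Nd6 alone was free of overlap in both sexes. The female median of 0.25 was 0.51 without female control replicate 1 and 0.05 without replicate 2. Usmg5, a nuclear-encoded subunit of ATP synthase, had a narrow spread, with 44.1 to 48.5 CPM against 51.1 to 52.9 CPM in males and 39.9 to 41.3 CPM against 50.4 to 50.6 CPM in females (0.24 ± 0.07). Nek7, a kinase of mitosis and of the inflammasome, and Mblac2 completed the set at 0.43 ± 0.12 and 0.33 ± 0.09.

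The sexes were also tested separately. In males alone 0 genes (0%) passed in edgeR's test (lowest adjusted p = 0.614; 1661 genes at an unadjusted p under 0.05, 634 higher and 1027 lower; DESeq2 called 2). In females alone 0 (0%) passed as well (lowest adjusted p = 0.687; 1150 genes, 784 higher and 366 lower; DESeq2 called 19). The test of the male minus the female effect gave 0 genes (0%; lowest adjusted p = 0.602; 1681 at an unadjusted p under 0.05; DESeq2 called 0). Without overlap, 21.6% of genes were higher and 23% lower in males, 16.2% higher and 18.2% lower in females, and 1770 genes (8.57%) were apart in opposite directions in the 2 sexes. Those apart in the same direction in both sexes were 5.95%.

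The 5 higher genes of smallest p in males were Ndufa12, Nubp2, Rps27, Recql4 and Cirbp. Ndufa12, a subunit of complex I, stood at 30.7 and 28.8 CPM in controls and 45.0 and 40.5 CPM in paternal libraries (0.52 ± 0.12), and the female groups overlapped at 34.8 to 42.5 CPM. Rps27, a protein of the small ribosomal subunit, stood at 173 and 157 against 234 and 194 CPM (0.38 ± 0.10). Recql4, a DNA helicase, stood at 2.09 and 2.82 against 5.88 and 4.35 CPM (1.06 ± 0.27). Cirbp, a cold-inducible RNA-binding protein, and Nubp2, an iron-sulphur cluster assembly factor, were at 0.43 ± 0.11 and 0.65 ± 0.16. Scn9a, a voltage-gated sodium channel, was the lower gene of smallest p, at 25.6 and 27.6 against 13.3 and 16.1 CPM (-0.85 ± 0.17). The other lower genes named were Rmst (-0.77 ± 0.19), Zmym6 (-0.44 ± 0.11), Tcirg1 (-1.02 ± 0.25) and Fam196b (-0.73 ± 0.18). The adjusted p of all 10 was 0.614 in edgeR's test. The female estimates of Scn9a, Tcirg1 and Fam196b lay between 0.00 and 0.07.

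In females the list was led by Ogn, which encodes the matrix proteoglycan osteoglycin. It stood at 2.53 and 5.64 CPM in controls and 20.8 and 13.8 CPM in paternal libraries (2.08 ± 0.33), while the males stood at 15.5 and 16.3 against 18.9 and 12.8 CPM. Thus the female controls were the low libraries, and the female paternal values lay near those of both male groups. Thbd, the endothelial and meningeal protein thrombomodulin, had the same layout, at 2.56 and 5.29 against 22.6 and 10.1 CPM in females (2.06 ± 0.37) and 12.6 to 15.6 CPM in all 4 male libraries. Pura and Purb, paired single-stranded nucleic acid binding proteins of neurons, were higher by 0.56 ± 0.09 and 0.46 ± 0.09. Pura stood at 39.2 and 41.1 against 57.7 and 60.8 CPM, and its male libraries at 50.1 to 57.7 CPM. Mc4r, the melanocortin receptor of appetite control, was lower, at 23.0 and 15.5 against 7.64 and 9.71 CPM (-1.15 ± 0.21), as were Lhx9, a thalamic homeobox factor (-0.92 ± 0.20), Fat3, an atypical cadherin (-0.44 ± 0.09), Tmem70 (-1.12 ± 0.27) and Prox1 (-0.65 ± 0.12). The adjusted p of the 10 female genes ran from 0.687 to 0.781 in edgeR's test.

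Gene lists were then described within each sex by their counts and medians, and the difference of a list between the sexes was not tested. Of 32 genes of DNA replication and mitosis 31 had a positive value in males, with a median log2 fold change of 0.33, and 2 had one in females, with a median of -0.18. Top2a, a topoisomerase of dividing cells, stood at 208 and 195 CPM in male controls and 273 and 274 CPM in male paternal libraries, and at 400 and 188 CPM in female controls and 239 and 256 CPM in female paternal libraries. Mki67, the marker Ki-67, stood at 279 and 273 against 311 and 345 CPM in males and at 468 and 248 against 289 and 292 CPM in females. In both genes female control replicate 1 was the highest of the 8 libraries and female control replicate 2 was below both female paternal libraries. Leaving out female control replicate 1 turned the female median of the list to 0.22, and leaving out replicate 2 made it -0.53, so the female direction rests on 1 control library. In males 28 of the 32 were free of overlap and higher, beside the 21.6% of all genes that were so. The male median stayed between 0.28 and 0.37 with each library left out. In bulk tissue, more cells of a type and more RNA per cell cannot be told apart.

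Intermediate progenitor genes followed the same layout. All 12 were positive in males with a median of 0.31, and 6 were positive in females with a median of -0.08. The female median was 0.36 without female control replicate 1 and -0.42 without replicate 2. Eomes, the defining factor of these cells, stood at 57.0 and 53.8 against 76.6 and 72.0 CPM in males and at 90.6 and 50.5 against 73.4 and 79.2 CPM in females. Neurog2, a proneural factor, stood at 31.4 and 27.5 against 42.8 and 46.9 CPM in males and at 56.2 and 26.6 against 39.6 and 44.6 CPM in females. Female control replicate 1 was again the highest library of each. Radial glia genes had medians of 0.16 in males and -0.01 in females over 16 genes, and the female median was 0.15 without female control replicate 1 and -0.24 without replicate 2. Deep-layer genes (12, medians 0.04 and 0.04) and upper-layer genes (12, medians 0.06 and 0.07) lay near 0 in both sexes.

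Ribosomal and respiratory genes had mostly positive values in males and mostly negative ones in females. Of 79 cytoplasmic ribosomal protein genes 78 were positive in males (median 0.22) and 22 in females (median -0.04). Over both sexes 75 were positive, and 7 were free of overlap and higher in both, beside 2.51% of all genes. Rpl17, a protein of the large subunit, was one of them, at 270 and 266 against 348 and 300 CPM in males and at 294 and 276 against 322 and 302 CPM in females (0.20 ± 0.07). For the 75 nuclear-encoded subunits of oxidative phosphorylation the counts of positive values were 69 in males (median 0.17) and 12 in females (median -0.09). For 77 mitochondrial ribosomal proteins they were 64 (median 0.14) and 25 (median -0.05). In males 63 of the 79 and 45 of the 75 were free of overlap and higher, beside 21.6% of all genes, and none of either list was lower. In females 23 of the 79 and 34 of the 75 were free of overlap and lower, beside 18.2% of all genes. With each library left out in turn the female median ran from -0.11 to -0.05 for oxidative phosphorylation and from -0.07 to -0.00 for cytoplasmic ribosomal proteins.

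Genes of glutamatergic synapses mostly had negative values in males. Of 18 glutamate receptor genes 17 were negative in males, 15 of them without overlap (23% of all genes were lower so), with a median of -0.23. In females 10 were negative, with a median of -0.04 that was -0.23 without female control replicate 1 and 0.16 without replicate 2. The male median was -0.15 without male paternal replicate 1. Grin2b, the main fetal NMDA receptor subunit beside Grin1, stood at 1152 and 1186 against 903 and 1015 CPM in males and at 1018 and 1179 against 1008 and 988 CPM in females (-0.21 ± 0.07, edgeR adjusted p = 0.927). Gria2, the AMPA receptor subunit that sets calcium permeability, was at -0.35 ± 0.11 in males and 0.30 ± 0.11 in females. GABA-A receptor subunits had medians of -0.24 in males and 0.17 in females over 12 genes. The female median was 0.02 without female control replicate 1 and 0.31 without replicate 2. Gabra4, one of the subunits, stood at 14.4 and 15.2 against 9.37 and 11.2 CPM in males and at 8.74 and 12.4 against 15.04 and 14.6 CPM in females. Of 24 synaptic genes 21 were negative in males and 15 in females, where the median of -0.08 became 0.06 without female control replicate 2. Shank2, a postsynaptic scaffold, and Nrxn3, a presynaptic adhesion protein, were free of overlap and lower in both sexes (-0.23 ± 0.07 and -0.22 ± 0.07). The median of 54 clustered protocadherins was -0.17 over both sexes and -0.10 without male paternal replicate 1, and the female median of -0.12 became 0.02 without female control replicate 2. Of the 54, 50 were negative over both sexes and 5 were free of overlap and lower in both, beside 3.45% of all genes.

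**Figure D2:**
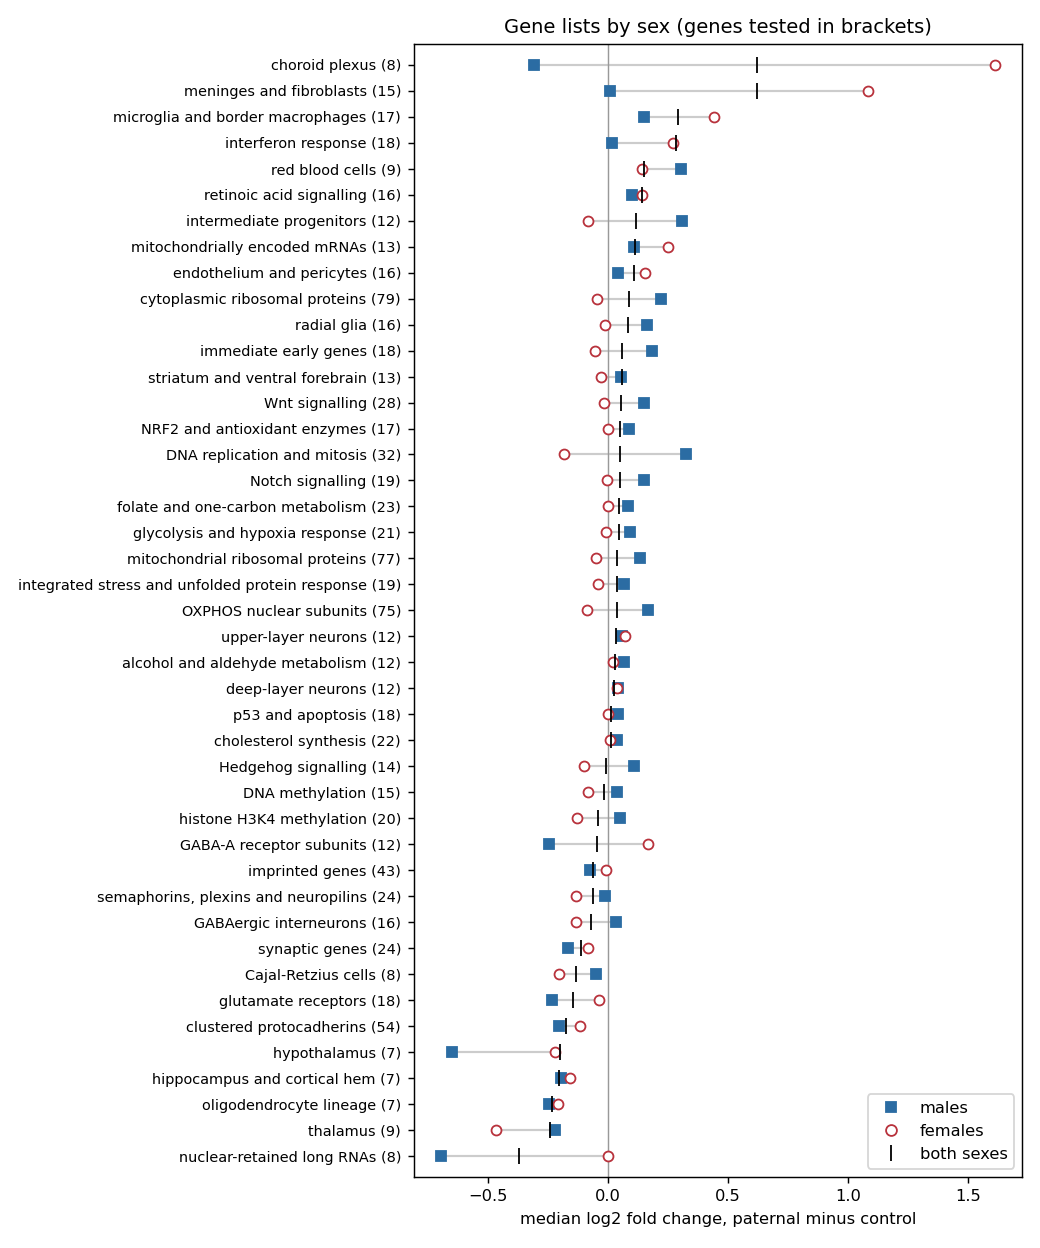
Median log2 fold change, paternal minus control, of 43 gene lists (number of genes tested in brackets) in males (blue squares), females (open red circles) and both sexes (black bars). Dividing-cell, intermediate progenitor, ribosomal and oxidative phosphorylation lists lie to the right of 0 in males and to the left in females, while meninges, choroid plexus and microglia lists lie farthest right in females.

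RNA composition moved with these male values. Genes annotated as TEC (models awaiting experimental evidence) or as sense-intronic took 0.429% and 0.534% of counts in male controls and 0.280% and 0.381% in male paternal libraries, against 0.325% and 0.349% in female controls and 0.331% and 0.352% in female paternal libraries. Of 1870 such genes tested, 783 (41.9%) were free of overlap and lower in males and 71 (3.80%) higher, with a median of -0.52. Of all genes 23% were so lower in males and 21.6% higher. In females 17.7% of the class were lower and 16.1% higher, beside 18.2% and 16.2% of all genes, and the median was -0.01. Of 8 long RNAs known to stay in the nucleus, 7 were negative in males. Meg3 stood at 740 and 867 against 308 and 507 CPM in males, and at 360 and 701 against 513 and 476 CPM in females. Malat1 stood at 4138 and 5037 against 2842 and 4065 CPM in males, and at 2701 and 3196 against 3545 and 3310 CPM in females. Gene identifiers without a symbol took 1.96% and 8.49% of counts in male controls, 14.2% and 5.49% in male paternal libraries and 1.99% to 2.43% in female ones. Among the male libraries, male paternal replicate 1 was thus at one end of each of these measures. Male control replicate 2 was at the other end for the TEC and sense-intronic share, Meg3 and Malat1. The part of single libraries in the values of the male lists was not tested beyond leaving them out. Without male paternal replicate 1 the male medians were 0.15 for cytoplasmic ribosomal proteins, 0.15 for oxidative phosphorylation and 0.28 for DNA replication and mitosis. Without male paternal replicate 2 they were 0.34, 0.28 and 0.37. They were 0.27, 0.23 and 0.36 without male control replicate 1, and 0.18, 0.14 and 0.31 without male control replicate 2.

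**Figure D3:**
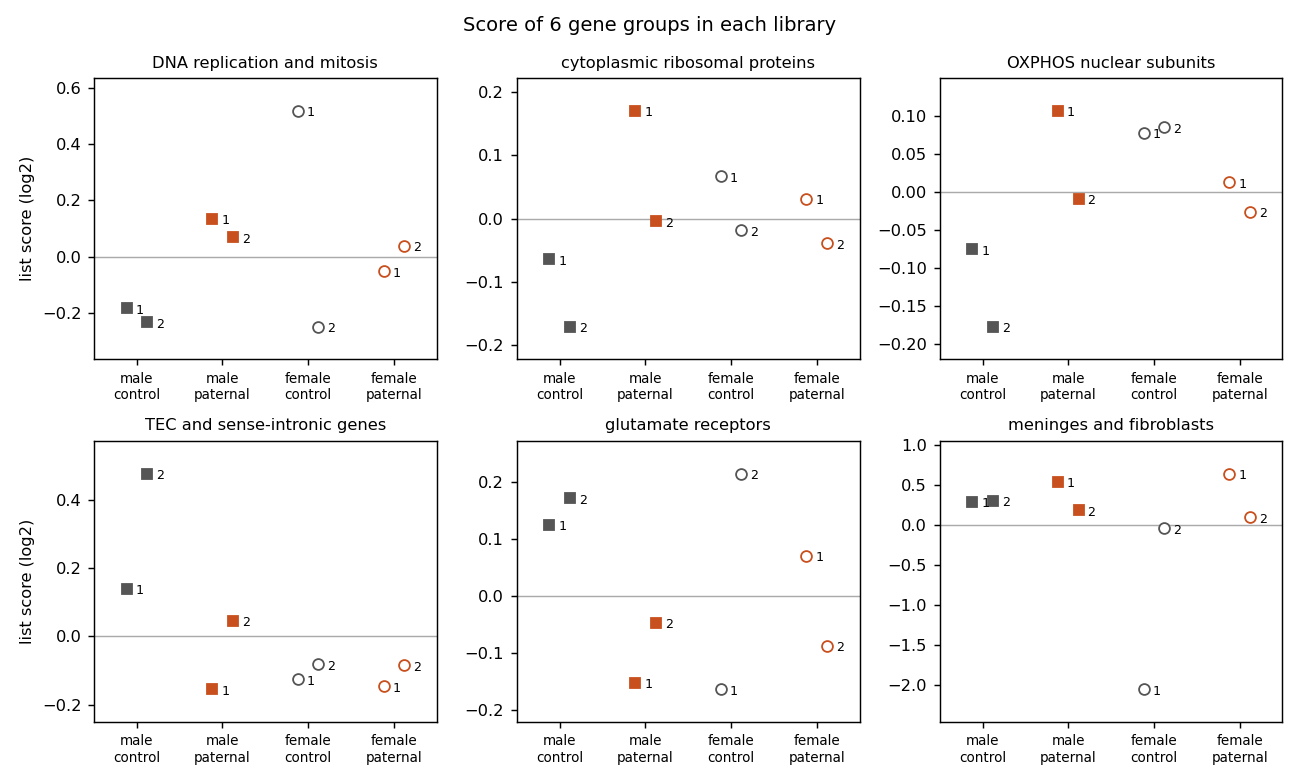
Score of 6 gene groups in each library, the median over the group's genes of log2(CPM + 0.5) minus the gene's mean over the 8 libraries (vertical axis); numbers are replicates. Female control replicate 1 stands at 0.52 for DNA replication and mitosis and at -2.05 for meninges, and male control replicate 2 is highest for TEC and sense-intronic genes at 0.48.

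Markers of cells outside the cortical wall varied most among single libraries. All 15 meninges and fibroblast markers were positive over both sexes with a median of 0.62, of which males gave 0.01 and females 1.08, and 3 were free of overlap and higher in both sexes, beside 2.51% of all genes. Their summed level was 120 to 613 CPM in controls and 526 to 720 CPM in paternal libraries, and no marker was at 0. The 120 CPM came from female control replicate 1, and the next lowest control stood at 493 CPM. Col1a1, a collagen of fibroblasts, stood at 17.7 and 101 CPM in female controls, 144 and 91.7 CPM in female paternal libraries and 92.1 to 136 CPM in the 4 male ones. Aldh1a2, the retinoic acid synthase of the meninges, stood at 0.693 and 7.75 against 16.8 and 9.68 CPM in females and at 10.5 and 10.8 against 16.7 and 15.1 CPM in males. Without female control replicate 1 the median of the list was 0.21 over both sexes and 0.42 in females, and without replicate 2 it was 0.91 and 2.73. H19, Slc38a4, Lgals1, Col12a1, Ogn and Thbd were lowest in the same library, and the part of the meninges in their values was not tested.

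Of 17 microglia and border macrophage markers 14 were positive with a median of 0.29 (0.15 in males, 0.44 in females), and 3 were higher without overlap in both sexes, beside 2.51% of all genes. The female median was 0.16 without female paternal replicate 1 and 0.28 without female control replicate 1, and the male median ran from 0.08 without male control replicate 2 to 0.31 without male paternal replicate 2. Their summed level was 72.5 to 125 CPM in controls and 123 to 155 CPM in paternal libraries. Mrc1, a receptor of border macrophages, stood at 32.6 and 25.4 against 48.3 and 32.5 CPM in males and at 4.49 and 18.6 against 39.2 and 29.3 CPM in females. Cx3cr1, which microglia express, was nearly level at 10.1 to 11.3 CPM in controls and 11.01 to 12.5 CPM in paternal libraries. Csf1r, the growth factor receptor of both cell types, stood at 19.9 and 18.0 against 26.3 and 20.5 CPM in males and at 16.6 and 19.4 against 23.9 and 20.1 CPM in females (0.29 ± 0.11). Choroid plexus markers were scattered: Ttr, their most abundant gene, stood at 2.18 and 61.8 against 29.9 and 14.4 CPM in males and at 0.181 and 22.5 against 118 and 1.01 CPM in females, so neither group was alike within itself. Kcne2 was at 0 in female control replicate 1 and in female paternal replicate 2.

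Factors of neighbouring forebrain regions differed by region. Of 13 genes of the striatum and ventral forebrain 8 were positive with a median of 0.06 (0.03 without female control replicate 1), and none was free of overlap in both sexes. Of 9 thalamic genes 8 were negative with a median of -0.24. That median ran from -0.16 without male control replicate 2 to -0.65 without male paternal replicate 2, and was -0.50 without male control replicate 1 and -0.45 without female control replicate 1. Summed thalamic levels were 138 to 210 CPM in controls and 130 to 146 CPM in paternal libraries. Tcf7l2, the main thalamic factor, stood at 21.3 and 33.9 against 19.3 and 24.6 CPM in males and at 24.5 and 68.6 against 21.6 and 25.4 CPM in females, with female control replicate 2 far above the rest. Gbx2, another thalamic factor, was free of overlap, at 2.61 and 1.90 against 0.892 and 1.30 CPM in males and 2.47 and 2.75 against 1.67 and 2.11 CPM in females (-0.70 ± 0.25). All 7 genes of the hippocampus and cortical hem were negative with a median of -0.20, led by Prox1. It was -0.35 without female control replicate 1 and -0.06 without male paternal replicate 1. Prox1 and Lhx9 were highest in female control replicate 2, the library with the highest Tcf7l2, and the part of these regions in their values was not tested. Prox1 was also lower in the male paternal libraries, where Lhx9 overlapped (12.3 and 13.2 against 10.8 and 13.3 CPM).

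Gene groups tied to alcohol itself had medians close to 0 over both sexes. Over 12 genes of alcohol and aldehyde metabolism the median was 0.03, and none was free of overlap in both sexes. Aldh2, the mitochondrial aldehyde dehydrogenase that clears acetaldehyde, stood at 40.5 to 52.6 CPM in controls and 40.9 to 47.9 CPM in paternal libraries, and Cat, catalase, at 61.0 to 65.5 CPM and 60.7 to 64.7 CPM. The medians were 0.05 for 17 NRF2 and antioxidant genes, 0.02 for 18 genes of p53 and apoptosis, 0.04 for 19 genes of the integrated stress and unfolded protein response and 0.05 for 23 genes of folate and one-carbon metabolism. With each library left out the medians of these 5 lists ran from -0.02 to 0.08. By sex they ran from 0.04 to 0.09 in males and from -0.04 to 0.02 in females. In males 8 of the 17 NRF2 genes and 10 of the 23 folate genes were free of overlap and higher, and 0 and 4 were lower. Of all genes 21.6% were so higher in males and 23% lower. Retinoic acid genes had a median of 0.14 with 14 of 16 positive, led by Aldh1a2, which is also a meninges marker. It was 0.06 without female control replicate 1 and 0.06 without female paternal replicate 1. Of 43 imprinted genes 14 were positive with a median of -0.06 (-0.01 without male paternal replicate 1), and 4 were free of overlap in both sexes, beside 5.95% of all genes: Slc38a4, H19 and Zrsr1 (0.12 ± 0.09) higher, and Mest lower. Among enzymes of chromatin, Kmt2d, Kmt2a and Kmt2b, methyltransferases of histone H3 lysine 4, were free of overlap and lower in both sexes (-0.20 ± 0.07, -0.18 ± 0.06 and -0.09 ± 0.06), beside 3.45% of all genes. Their list of 20 had a median of -0.04, and the sexes differed. In males 14 were positive (median 0.05), with 10 higher and 4 lower without overlap. In females 18 were negative (median -0.13), with 0 higher and 12 lower, beside 16.2% and 18.2% of all genes. Dnmt3a, the methyltransferase that sets DNA methylation anew, was at -0.12 ± 0.06. None of the 43 lists had a gene with an adjusted p under 0.05 in edgeR's test, as none did among all genes (0%).

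The count of called genes depended on the female controls. With female control replicate 1 left out, edgeR called 196 genes over both sexes, 111 in males and 676 in females, and 37 for the sex difference. With female control replicate 2 left out it called 0, 123, 885 and 1475. Leaving out any of the other 6 libraries gave at most 6 calls in any of the 4 comparisons. The remaining female control then stands alone, and it is assumed to vary like the other groups, and the counts for males move only through the shared filter, scaling and estimate of spread, since the male libraries stay the same. Without female control replicate 1 the genes of smallest p over both sexes were Top2a, Neurog2 and Eomes (0.42, 0.63 and 0.49, edgeR adjusted p = 0.00775 each), the dividing-cell and progenitor genes described above. Of the 24 named genes 8 had an adjusted p under 0.05 in that fit: mt-Nd6 and Nek7 higher, and D10Wsu102e, Prox1, Bsn, Zfhx3, Igsf9b and Plxna1 lower, from 0.0300 for D10Wsu102e to 0.0449 for Plxna1.

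**Figure D4:**
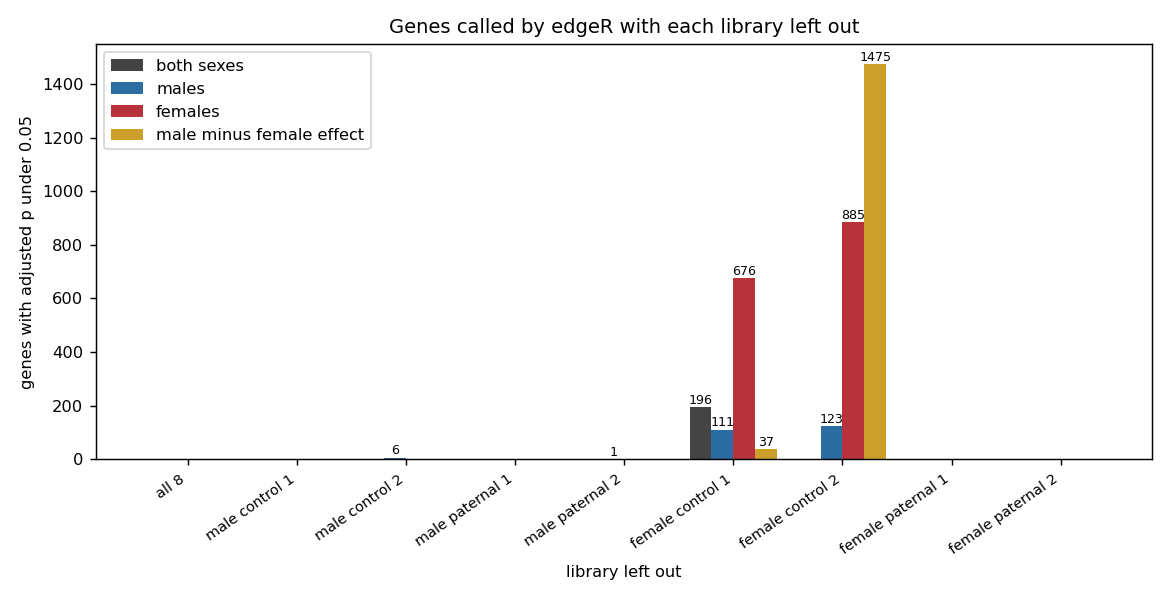
Number of genes with an edgeR adjusted p under 0.05 (vertical axis) with all 8 libraries and with each library left out in turn (horizontal axis), for both sexes, males, females and the male minus female effect. Only the 2 fits without a female control exceed 6 genes in any comparison.

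The same father's exposure can also be read on the background of an exposed mother, in 8 libraries that share none with the comparison above: 4 from fetuses with both parents exposed against 4 with the mother alone exposed. This comparison was chosen after seeing the data. Over both sexes 1802 of 20492 genes (8.79%) passed in edgeR's test there, 1254 higher and 548 lower. Of the 24 named genes 7 had the same sign in both comparisons, 4 of the 12 higher and 3 of the 12 lower, and over all 19820 genes tested in both 42.1% did. The 7 named genes that passed with an exposed mother were mt-Nd6 and Rny3, with the same sign (0.49 and 1.90, edgeR adjusted p = 0.00375 and 0.00236), and Slc38a4, Lgals1, H19, D10Wsu102e and Rmst, with the opposite sign. Mitochondrial ribosomal RNA took 0.778% and 0.736% of counts in male maternal and 1.405% and 2.26% in male dual libraries. In females it took 0.00886% and 0.00985% against 0.0325% and 0.0272%. The part of that share in the mt-Nd6 and Rny3 values was not tested.

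H19 stood at 222 and 144 CPM in male maternal and 126 and 132 CPM in male dual libraries, and at 142 and 125 CPM in female maternal and 103 and 102 CPM in female dual libraries (-0.44, edgeR adjusted p = 0.00966). D10Wsu102e stood at 307 and 265 against 397 and 328 CPM in males and at 304 and 326 against 472 and 479 CPM in females (0.47, edgeR adjusted p = 0.00118). So H19 was lower and D10Wsu102e higher in dual than in maternal libraries, opposite in direction to paternal against control. The H19 levels of the dual libraries lay near those of the unexposed controls (137 and 132 CPM in males, 71.2 and 99.7 CPM in females). The maternal and dual libraries were scaled apart from those controls. Mest and Prox1 were near 0 there (0.08 and 0.07). The female dual libraries stood apart in composition, with 0.872% and 0.860% of counts on TEC and sense-intronic genes against 0.391% and 0.374% in the female maternal ones, and the part of that in these values was not tested.

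**Figure D5:**
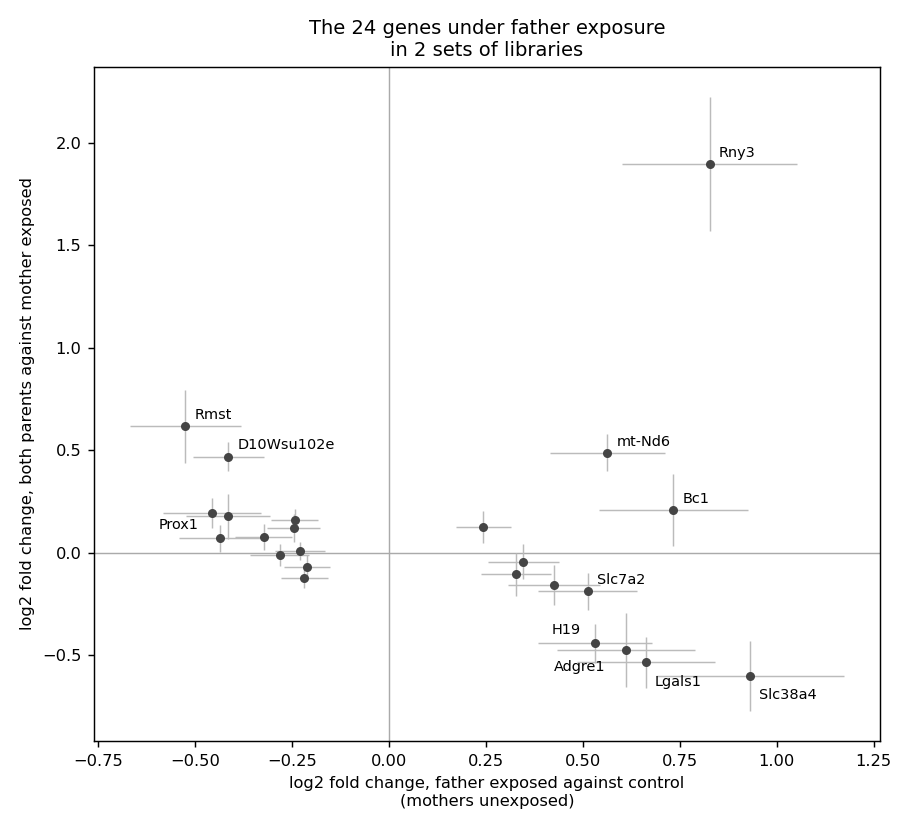
Log2 fold change of the 24 named genes with exposure of the father, with mothers unexposed (horizontal axis, 4 against 4 libraries) and with mothers exposed (vertical axis, 4 against 4 other libraries); lines are standard errors. The genes at 0.51 to 0.93 on the horizontal axis include Slc7a2, H19, Lgals1 and Slc38a4 below 0 on the vertical axis, and mt-Nd6, Bc1 and Rny3 above it.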

How the data were processed

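RNA of fetal cortex was sequenced by a total RNA kit, per the labels' protocols. The authors deposited raw counts per gene, 1 table per library. The submitters' processing notes name Trimmomatic, STAR and featureCounts with GRCm39; versions, annotation, strand setting and the handling of multi-mapped reads were not given in the sources used here. Of 55359 gene IDs 52083 had a symbol in GENCODE M21 (GRCm38, used for names, classes and exon lengths only).

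Counts of the 8 libraries were analysed in R 4.3.3 with edgeR 4.0.16: filterByExpr over the 4 groups (minimum count 10, minimum total count 15), TMM scaling, and glmQLFit and glmQLFTest, two-sided, with sex as a block, 5 residual and 7.68 prior degrees of freedom. Effects within each sex and their difference came from a fit of 4 group means, with 4 residual degrees of freedom. P-values were adjusted by Benjamini-Hochberg over 20656 genes, with a threshold of 0.05. The scripts were checked on simulated data. Depth, as total counts, was 15336566 to 35218456, and values cover the spread of 2 libraries per group.

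The genes named are, over both sexes, the 12 of smallest p per direction with an established symbol (no predicted gene or clone), the same sign in both sexes and a mean log2 CPM from 1 upward, 5 per direction for each sex and for the sex difference, and up to 4 members of each list. Other list members were named after their values were seen. Libraries, lists and rules were chosen with earlier results of these data known. The rule that same-numbered replicates pair was tested: their deviations correlated at 0.05 in males and -0.21 in females, so the numbers were not used as pairs. Alternatives were DESeq2 1.42.0, its size factors, no filter, a replicate block, all 16 libraries, symbols only, no sex block and each library left out. A crossed block, list medians by sex without each library and the comparison of both parents with the mother alone were chosen after seeing the data.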

Additional observations from a re-analysis of the deposited data

Results flagged for a closer look

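Of the genes of smallest p for the sex difference, 9 had both paternal libraries on opposite sides of their controls in males and females. The difference itself was tested in edgeR's fit, and none passed (adjusted p = 0.602 for each), beside 8.57% of all genes with such a layout. The values are the male minus the female log2 fold change. Hist1h4b, a replication-dependent histone, was at 2.85, with 1.14 and 1.04 against 2.83 and 2.99 CPM in males and 5.43 and 2.34 against 1.56 and 1.31 CPM in females. Sf3a2, a splicing factor, was at 0.60, with 42.8 and 39.2 against 51.5 and 48.9 CPM in males and 58.8 and 60.6 against 49.4 and 46.8 CPM in females. Wnt7b, a Wnt ligand of the cortex, was at 0.74, with 97.5 and 95.7 against 140 and 114 CPM in males and 151 and 129 against 101 and 118 CPM in females. Ldhb, a lactate dehydrogenase subunit, was at 0.56. Nr4a3, an activity-regulated nuclear receptor, was at -0.77, with 46.9 and 46.1 against 40.3 and 37.9 CPM in males and 33.2 and 36.6 against 48.3 and 51.4 CPM in females. Gabra2, a GABA-A receptor subunit, was at -0.87, with 35.3 and 40.4 against 27.5 and 29.6 CPM in males and 24.2 and 28.6 against 39.1 and 33.8 CPM in females. Zmym6 was at -0.75, Slitrk4, a synaptic adhesion protein, at -0.68, and Rian, an imprinted RNA of the Meg3 region, at -0.63, with 486 and 520 against 367 and 416 CPM in males and 348 and 390 against 449 and 441 CPM in females. In the 9 genes the male and female controls also lay apart, the 2 male controls on one side of the 2 female ones.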

How the results depend on the processing

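Each group held 2 libraries. DESeq2 called 1 gene over both sexes, 2 in males and 19 in females (0 for the sex difference), among the female ones Mc4r, H19, Bc1, Prox1, Ogn, Pura and Purb. Without a filter on low counts, 35075 genes entered, the prior degrees of freedom became infinite, and edgeR called 171 genes over both sexes, 157 in males, 300 in females and 228 for the sex difference; those over both sexes were led by mt-Rnr2 and mt-Rnr1, of the mitochondrial ribosomal RNA. Leaving out each library in turn gave 0 to 196 genes over both sexes, 0 to 123 in males, 0 to 885 in females and 0 to 1475 for the sex difference. The replicate block called 0 genes in all 4 comparisons, and 2 pairs per sex could not show that numbers mark pairs. With the numbers crossed in females, where same-numbered libraries deviated in opposite ways (-0.21), the block called 56 genes in females and 3 for the sex difference. DESeq2's size factors, all 16 libraries in the fit, IDs without a symbol left out and no block on sex called 0 genes over both sexes. Genes free of overlap within either sex numbered 1227 with DESeq2's size factors and 1613 without the filter, against 1230. Of 834 values of single genes under the alternatives, 736 kept their sign and their side of the threshold and 98 newly passed it, 47 of them with a female control left out. Of 645 list medians 13 moved by more than the spread between replicates, 8 of them with a female control left out. The causes were not tested.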

Other observations

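Other gene groups, with medians over both sexes, were as follows. The median log2 fold change of endothelial and pericyte markers was 0.11 with 14 of 16 positive (0.02 without female control replicate 1). That of interferon response genes was 0.28 with 14 of 18 positive (0.14 without female paternal replicate 1). In males the interferon median was 0.02 with 10 positive, and in females 0.27 with 16 positive. Oligodendrocyte lineage genes had -0.23 with 6 of 7 negative (-0.07 without female control replicate 2), and Cajal-Retzius genes -0.13 over 8. Semaphorins, plexins and neuropilins had -0.06 with 18 of 24 negative and 3 free of overlap and lower in both sexes, beside 3.45% of all genes. Wnt genes had 0.06 over 28 (0.15 in males, -0.02 in females), Notch genes 0.05 over 19, Hedgehog genes -0.01 over 14 (0.11 in males, -0.10 in females), glycolysis and hypoxia genes 0.04 with 18 of 21 positive, cholesterol synthesis 0.01 over 22 and immediate early genes 0.06 over 18. Red blood cell genes had 0.15 over 9 (-0.11 without male paternal replicate 2 and 0.40 without male paternal replicate 1), with summed levels of 542 to 703 CPM in controls and 475 to 1196 CPM in paternal libraries.

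Gene length went with the values of both sexes, falling with length in males and rising in females. Protein-coding genes in the shortest of 4 equal groups (exon length up to 2847 bases) had a median of 0.06 in males and -0.04 in females, and those in the longest (at least 6847 bases) -0.01 and 0.00. By library, the shortest group stood at -0.02 and -0.07 in male controls and at 0.03 and -0.01 in male paternal libraries (log2 scale). Male control replicate 1 and male paternal replicate 2 thus lay close together. The shortest group stood at 0.02 and 0.05 in female controls and at 0.03 and -0.003 in female paternal libraries.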
